A study of Mus musculus with 9 samples.

Results

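Transcripts of 40 genes of the protein-folding machinery were followed in activated mouse CD8+ T cells. The genes were chosen by name, as chaperones, cochaperones and folding enzymes of known compartment together with the transcription factors Hsf1 and Xbp1. No threshold on a measured value was used, but earlier results of these data were known when the choice was made. The genes were matched to the count table by symbol. They are 40 of the 53679 gene IDs in the count table. Of these, 13 belong to the cytosol, 8 encode the subunits of the cytosolic chaperonin CCT, 4 belong to the mitochondrion and 15 to the endoplasmic reticulum (ER). All 40 passed the filter on low counts, so none is missing from the tests.

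Molecular chaperones bind unfolded proteins and help them reach their final shape, and cells that grow and divide rapidly, as activated T cells do, make large amounts of them. In the cytosol, Hsp70 proteins work with J-domain proteins and nucleotide exchange factors and hand clients to Hsp90, while the ring-shaped CCT complex folds actin, tubulin and other proteins. The mitochondrial matrix has its own Hsp70 and a barrel formed by Hsp60 and its lid Hsp10. In the ER the Hsp70 protein BiP, the lectins calreticulin and calnexin and the protein disulfide isomerases fold secreted and membrane proteins. Transcription of cytosolic and mitochondrial chaperone genes can be raised by heat shock factor 1, and that of ER chaperone genes by the unfolded protein response, in which Xbp1 and Atf6 act.

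The CD8+ T cells came from C57BL/6 mice and were activated for 3 days. Tc0 is the usual name for CD8+ T cells that received no polarising cytokines, and Tc22 for cells that make interleukin-22. How the cultures of both differed is not given in the sources used here. Groups, 3 in all, were Tc0 cells without an agent (the extraction protocol speaks of vehicle), Tc0 cells activated with coenzyme A (CoA), and Tc22 cells without an agent. Each group held 3 libraries, and each of the mice 715, 725 and 728 gave 1 library to every group, so comparisons were made within mice. Total RNA depleted of ribosomal RNA was sequenced.

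The libraries held from 21841034 to 36254631 counts. The Tc0 library of mouse 728 stood apart. Chi-square divided by its degrees of freedom was 216 and 127 where it was set against the other Tc0 libraries, whereas all other replicate pairs lay between 22.3 and 69.8. Mitochondrial genes gave 2.0% of its counts and histone genes 0.668%, against 3.33% to 3.97% and 0.140% to 0.188% in the other Tc0 libraries. The number of members that passed is given with and without it, as are the members whose calls changed in the comparisons with untreated Tc0 cells. The T cell label was met by the defining markers: the 9 markers of the CD8 T cell list had counts in every group and summed to between 1992 and 3194 CPM per library (CPM is a gene's count scaled to the library's size), while the 6 B cell markers summed to 7.10 to 11.9 CPM. In bulk RNA of this kind, fewer cells of a type and less RNA per cell cannot be told apart.

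Several chaperones were among the most abundant transcripts of Tc0 cells. Compared per length, as mean CPM per kilobase of exon in the Tc0 libraries, Hspa8, the constitutive cytosolic Hsp70, stood highest at 1176, followed by Hsp90ab1 at 1003 and Hsp90aa1 at 790.2, the beta and alpha forms of Hsp90. Hspd1, which encodes mitochondrial Hsp60, came next at 392, then the chaperonin subunit Cct2 at 320.0 and the ER lectin Canx (calnexin) at 279. The top of the order thus held cytosolic Hsp70 and Hsp90. Hsph1, an Hsp110 that exchanges the nucleotide of Hsp70, stood near the bottom at 10.5, above the transcription factor Hsf1 at 2.10 and Bag3, an Hsp70 cochaperone of selective autophagy, at 1.22. Of all genes tested, 99.9% lay below Hspa8 and 31.9% below Bag3 on this scale. Exon length here joins the exons of all annotated transcripts of a gene. The order therefore also depends on how much exon sequence is annotated for each gene. All 40 genes together took 2.31% to 2.79% of counts in the Tc0 libraries, 3.07% to 3.51% in those with CoA and 2.44% to 2.67% in the Tc22 libraries; the share was higher in each library with CoA than in any other.

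Promoter windows from RefSeq (GRCm38.p6), from 250 bases before to 50 after each start, were found for 31 of the 40 genes and searched on both strands for published response elements. They are shown because the choice of genes did not use them and because some members of a compartment share an element. The heat shock element was searched as 3 units that alternate between GAA and TTC, starting with either, with any 2 bases between units. The ER stress response element was searched as CCAAT, any 9 bases and CCACG. The heat shock element was found in 0.603% of all 32851 mouse windows and in those of 3 members, Hsph1, Hspd1 and Hspe1. For Hsph1 the match lies after the start. Members without a window were not searched, among them Hspa8, Hsp90aa1, Hsp90ab1, Hsf1 and Hspa9. Hspd1 and Hspe1 lie head to head on chromosome 1, where the starts that RefSeq gives are 216 bases apart for 1 Hspd1 transcript, and share 2 overlapping matches. The 250 bases before the Hspe1 start (chr1:55087898-55088147, plus strand) hold the matches in capitals.
Hspe1: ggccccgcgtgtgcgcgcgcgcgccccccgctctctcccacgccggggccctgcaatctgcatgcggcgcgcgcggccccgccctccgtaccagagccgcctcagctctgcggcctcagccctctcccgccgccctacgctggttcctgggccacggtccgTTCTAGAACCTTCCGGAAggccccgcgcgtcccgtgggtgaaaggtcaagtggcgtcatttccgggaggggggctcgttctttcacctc

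The ER stress response element was found in 0.119% of all windows, which is 39 windows, and in those of 6 of the 13 ER members that had one. It was found in 0 of the 8 cytosolic, 7 CCT and 3 mitochondrial members with a window. In each line the fixed letters of the element are in capitals, read on the strand that matches, which for Calr, Creld2 and the first Hsp90b1 match is the strand opposite to the gene.
Hspa5: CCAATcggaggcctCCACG
Calr: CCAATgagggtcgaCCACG
Pdia6: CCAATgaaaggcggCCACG
Canx: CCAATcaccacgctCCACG
Creld2: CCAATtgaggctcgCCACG
Hsp90b1, first match: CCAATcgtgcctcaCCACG
Hsp90b1, second match: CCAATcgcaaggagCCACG
A second form of the element, searched as ATTGG, any base and CCACG and held by 0.0365% of windows, was found for Dnajb11 and Herpud1, and the unfolded protein response element TGACGTGG, held by 0.676% of windows, for 0 members. The 250 bases before the Hspa5 start (chr2:34771840-34772089, plus strand) carry the element in capitals, 65 to 47 bases before the start.
Hspa5: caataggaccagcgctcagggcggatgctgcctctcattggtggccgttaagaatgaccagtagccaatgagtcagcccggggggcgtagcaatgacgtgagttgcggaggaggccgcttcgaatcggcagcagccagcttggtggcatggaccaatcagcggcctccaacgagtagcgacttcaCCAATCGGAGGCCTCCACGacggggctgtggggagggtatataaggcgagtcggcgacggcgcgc
A match is a description of the letters and does not show that a factor binds there. Of the 6 genes with the first form, Hspa5, Calr and Pdia6 rose with CoA in the comparison described next, and Canx, Creld2 and Hsp90b1 did not pass.

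**Figure D1:**
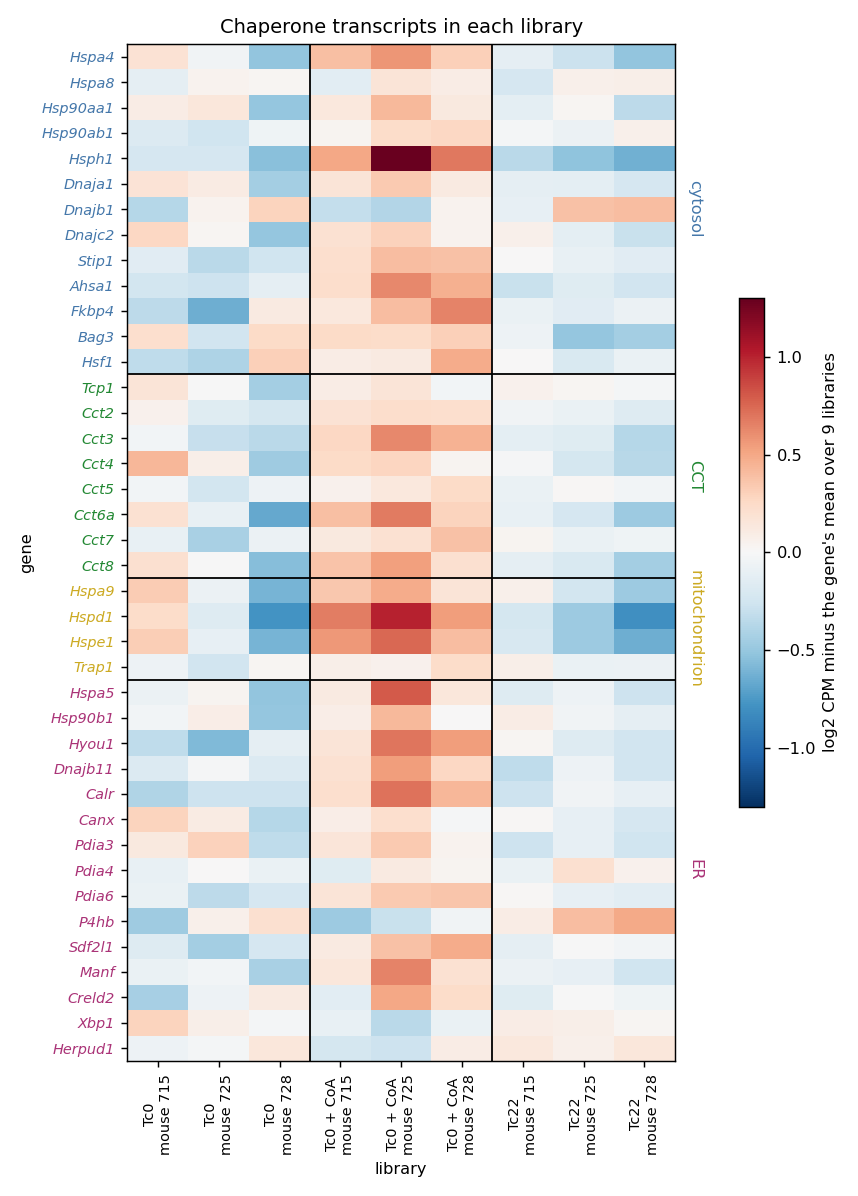
Levels of the 40 genes (rows, coloured by compartment) in the 9 libraries (columns), as log2 CPM minus the gene's mean over the libraries, red above and blue below the mean. The libraries with CoA, above all that of mouse 725, are mostly red, while P4hb, Dnajb1, Xbp1 and Herpud1 are not.

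The first comparison asks which folding genes differ when CoA is added to Tc0 cells. Genes of every compartment were higher with CoA: 21 of the 40 genes rose and 0 fell at an adjusted p under 0.05 (edgeR's quasi-likelihood test with mouse as a block, Benjamini-Hochberg adjustment over 15348 genes), where 12.5% of all genes tested rose, 12.0% fell and 24.5% went either way. The risers were 6 of 13 cytosolic genes, 5 of 8 CCT subunits, 3 of 4 mitochondrial genes and 7 of 15 ER genes. The fitted log2 fold changes had a median of 0.34 in the cytosol, 0.38 for CCT, 0.57 in the mitochondrion and 0.33 in the ER, against -0.01 over all genes tested. At an unadjusted p under 0.05 there were 27 members, where 5850 of 15348 genes passed. DESeq2 called 21 members, where it called 3781 of 15348 genes.

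Within mice the compartment medians differed in size and shared their sign. Mouse 715 had the smallest median log2 ratio in each compartment, 0.205 in the cytosol, 0.146 for CCT, 0.196 in the mitochondrion and 0.198 in the ER. Mouse 725 had 0.496, 0.464, 0.702 and 0.552, and mouse 728 had 0.548, 0.475, 0.886 and 0.453, for the cytosol, CCT, mitochondrion and ER in that order. In all, 29 of the 40 genes were higher with CoA in each of the 3 mice and 3 were lower in each. The share of all genes that did so was not counted. The levels of all 3 libraries with CoA lay above all 3 Tc0 libraries for 21 members, where 14.2% of all genes did so, and below them for 1 member, Xbp1, where 13.6% did.

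In the cytosol Hsph1, Fkbp4, Ahsa1, Stip1, Hspa4 and Hsp90ab1 rose. Hsph1 (ENSMUSG00000029657, chromosome 5, 149614287 to 149636376, minus strand, GRCm38) stood at 82.0, 81.8 and 65.5 CPM in the Tc0 libraries of mice 715, 725 and 728 and at 135, 233 and 153 CPM in those with CoA. The groups did not overlap, and the library of mouse 725 was the highest. The means were 76.5 ± 9.46 and 174 ± 52.1 CPM (SD, n = 3). Its log2 fold change was 1.17 (SE 0.16, adjusted p = 0.00261 by edgeR), or 2.25-fold. Ahsa1, which activates the ATPase of Hsp90 (chromosome 12, 87266479 to 87273998, plus strand), went from 93.0, 91.0 and 101 to 128, 169 and 151 CPM. All libraries with CoA were above all without it (0.64, SE 0.11, adjusted p = 0.00457). Fkbp4, a prolyl isomerase that docks on Hsp90, rose as well (0.68, SE 0.14, adjusted p = 0.0103), as did Stip1, the protein that bridges Hsp70 and Hsp90 (0.59, SE 0.11, adjusted p = 0.00660). Stip1 stood at 258, 224 and 238 CPM without and 331, 378 and 372 CPM with CoA, and Fkbp4 at 136, 111 and 186 against 189, 228 and 269 CPM. Neither pair of groups overlapped. Hspa4, another Hsp110, went from 645, 547 and 397 to 745, 844 and 704 CPM (0.55, SE 0.13, adjusted p = 0.0134). Hsp90ab1 went from 2981, 2804 and 3242 to 3436, 3955 and 4055 CPM (0.34, SE 0.10, adjusted p = 0.0378). Every library with CoA was above every Tc0 library for both genes, which completed the 6.

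The most abundant cytosolic chaperone did not move with them. Hspa8 stood at 4713, 5253 and 5206 CPM in the Tc0 libraries and at 4627, 5735 and 5455 CPM in those with CoA. The groups overlapped, and its log2 fold change was 0.06 (SE 0.10, adjusted p = 0.717 by edgeR). Hsp90aa1, the inducible Hsp90, had 3461, 3575 and 2283 CPM without and 3553, 4339 and 3534 CPM with CoA, with the Tc0 library of mouse 728 lowest (0.31, SE 0.12, adjusted p = 0.0921). Hsf1 did not pass either (0.37, SE 0.16, adjusted p = 0.121), but did where the Tc0 library of mouse 728 was left out (0.54, adjusted p = 0.0347). The J-domain genes Dnaja1 (0.25), Dnajb1 (-0.20) and Dnajc2 (0.25) and the cochaperone gene Bag3 (0.18) did not pass, with adjusted p from 0.172 to 0.539.

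All 8 CCT subunits, which form 1 complex, had fold changes above 0, and 5 passed. Cct3 (chromosome 3, 88297116 to 88321767, plus strand) had the largest, going from 417, 346 and 334 to 515, 660 and 584 CPM without overlap (0.68, SE 0.13, adjusted p = 0.00706 by edgeR). Cct6a (0.64, SE 0.14, adjusted p = 0.0132), Cct8 (0.48, SE 0.13, adjusted p = 0.0220), Cct7 (0.43, SE 0.11, adjusted p = 0.0220) and Cct2 (0.32, SE 0.10, adjusted p = 0.0479) rose too. Cct2 stood at 1001, 1032 and 1026 CPM with CoA, against 915, 787 and 752 CPM without it. Cct5 (0.26, adjusted p = 0.103), Cct4 (0.17, adjusted p = 0.403) and Tcp1, which encodes the alpha subunit (0.16, SE 0.12, adjusted p = 0.363), did not pass. For Cct4 and Tcp1 the level in mouse 715 was lower with CoA than without.

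Of the mitochondrial chaperones, Hsp60, its lid Hsp10 and the matrix Hsp70 rose. Hspd1 (Hsp60; ENSMUSG00000025980, chromosome 1, 55077835 to 55088243, minus strand) stood at 1380.2, 1044 and 682 CPM in the Tc0 libraries of mice 715, 725 and 728 and at 1850, 2341 and 1704 CPM with CoA. The groups did not overlap, although the Tc0 libraries themselves spanned more than the step within mouse 715 (0.97, SE 0.16, adjusted p = 0.00467 by edgeR, or 1.96-fold). Hspe1 (Hsp10; chromosome 1, 55088132 to 55091307, plus strand), which carries the heat shock elements printed above, went from 369, 275 and 194 to 438, 496 and 390.4 CPM (0.70, SE 0.15, adjusted p = 0.00960). Its groups did not overlap either. Hspa9, the matrix Hsp70, rose by less (0.45, SE 0.14, adjusted p = 0.0427), from 1201, 908 and 631 to 1222, 1333 and 1074 CPM, so that the Tc0 library of mouse 715 lay within the range with CoA. Trap1, the mitochondrial Hsp90, did not pass (0.22, SE 0.10, adjusted p = 0.135).

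Among ER genes, BiP, its partners and calreticulin rose, while Xbp1, P4hb and Herpud1 had fold changes below 0 that did not pass. Calr (ENSMUSG00000003814, chromosome 8, 84841850 to 84846934, minus strand) stood at 375, 409 and 409.5 CPM without and 571, 801 and 663 CPM with CoA. The groups did not overlap (0.76, SE 0.11, adjusted p = 0.00265 by edgeR). Hspa5, which encodes BiP (chromosome 2, 34771970 to 34777547, plus strand), went from 566, 613 and 421 to 649.5, 1043 and 665 CPM. Its groups did not overlap, and the library of mouse 725 was far above the other libraries with CoA (0.55, SE 0.14, adjusted p = 0.0190). Hyou1, which exchanges the nucleotide of BiP, rose from 107, 90.5 and 124 to 152, 219 and 197 CPM (0.82, SE 0.16, adjusted p = 0.00853). Sdf2l1 (0.60, SE 0.13, adjusted p = 0.0104) and Dnajb11 (0.46, SE 0.09, adjusted p = 0.00861), whose proteins act together with BiP, rose as well. So did Manf, a BiP cofactor that can be secreted (0.52, SE 0.12, adjusted p = 0.0134), and the disulfide isomerase gene Pdia6 (0.51, SE 0.11, adjusted p = 0.0115). Sdf2l1 stood at 35.2, 29.1 and 33.8 CPM without and 42.7, 51.2 and 55.0 CPM with CoA. Dnajb11 stood at 72.3, 80.8 and 71.97 against 93.2, 118 and 98.5 CPM. In these 4 genes, too, all libraries with CoA were above all without.

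The other 8 ER genes did not pass. Hsp90b1, the ER Hsp90 (0.32, SE 0.13, adjusted p = 0.0959 by edgeR), Creld2 (0.33, adjusted p = 0.124), Pdia3 (0.15, adjusted p = 0.395), Canx (0.08, adjusted p = 0.663) and Pdia4 (0.05, adjusted p = 0.712) had fold changes above 0. Those below 0 were Herpud1, a gene of ER-associated degradation (-0.15, adjusted p = 0.332), P4hb, the classic protein disulfide isomerase (-0.20, adjusted p = 0.184), and Xbp1. Xbp1 stood at 231, 199 and 187 CPM without and 178, 148 and 179 CPM with CoA. The groups did not overlap, but the difference did not pass (-0.29, SE 0.11, adjusted p = 0.0791). It passed where the Tc0 library of mouse 728 was left out (-0.37, adjusted p = 0.0342). These counts do not separate spliced from unspliced Xbp1 RNA.

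**Figure D2:**
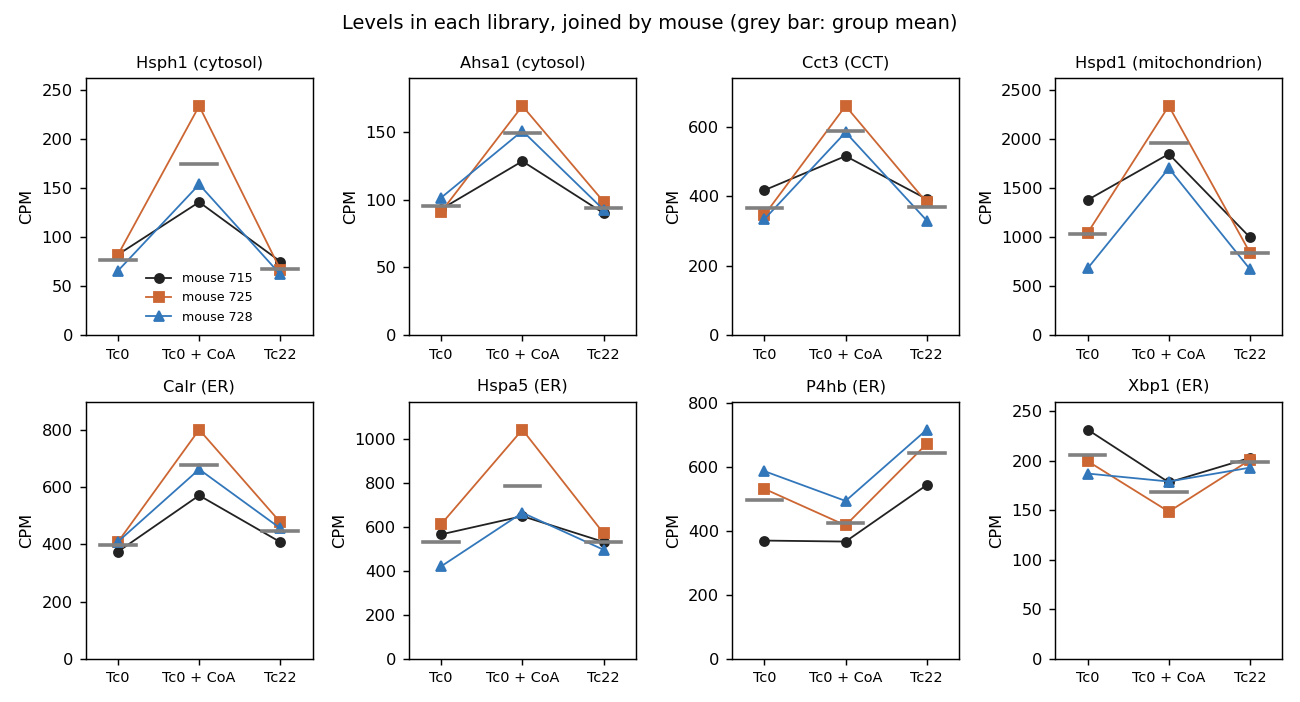
CPM (linear axis from 0) of 8 members in the Tc0, Tc0 with CoA and Tc22 libraries, with points joined by mouse and a grey bar at each group mean (n = 3). Hsph1, Ahsa1, Cct3, Hspd1, Calr and Hspa5 peak with CoA in all 3 mice, whereas P4hb and Xbp1 have their lowest mean there.

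The number of members called depended on single libraries. With the Tc0 library of mouse 725 left out the count was 4, where 1160 of 15887 genes tested were called. With the CoA library of mouse 725 left out it was 8, where 1325 of 15840 genes were called. Without the CoA library of mouse 728 it was 7, where 1485 of 15872 were called. Without the mouse block it was 9, where 1462 of 15348 were called. Without the Tc0 library of mouse 728 it was 19 higher and 1 lower (Xbp1), where 3982 of 15696 genes were called. Cct2 (0.28, adjusted p = 0.0597 by edgeR), Hspa5 (0.46, adjusted p = 0.0514) and Hspa9 (0.31, adjusted p = 0.104) lost their calls there and Hsf1 gained a call. Median log2 fold changes there were 0.35 in the cytosol, 0.32 for CCT, 0.44 in the mitochondrion and 0.44 in the ER. Hsph1, Ahsa1, Hspd1 and Calr were called under all 15 alternatives run. Cct3, Hyou1 and Stip1 lost the call only without the Tc0 library of mouse 725, and the other 14 under 3 to 10 alternatives.

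Cell type markers moved with CoA as well. The CD8 T cell list summed to 1992 to 2508 CPM with CoA and 2432 to 3194 CPM without, ranges that overlapped, and 5 of its 9 genes fell, among them Cd3d, a subunit of the T cell receptor complex (-0.79, SE 0.14, adjusted p = 0.00616 by edgeR). Cd8a (-0.06, adjusted p = 0.742), Cd8b1 (0.005, adjusted p = 0.983), Lck (0.04, adjusted p = 0.867) and Cd247 (-0.31, adjusted p = 0.103) did not pass. Markers of plasma cells, which are rich in ER chaperones, summed to 7.70 to 8.34 CPM with and 5.08 to 6.20 CPM without CoA, with Tnfrsf17 at 0 in both groups. Of the 5 that were tested, Mzb1 rose (2.53, adjusted p = 0.00445), while Sdc1 (0.91), Pou2af1 (0.41), Derl3 (-0.05) and Jchain (-0.11) did not pass, with adjusted p from 0.159 to 0.941. The granulocyte and mast cell list summed to 1.37 to 3.04 CPM with and 0.283 to 1.1 CPM without CoA, with S100a9 and Elane at 0 in both groups, and 1 of its 2 tested genes, Mcpt8, rose (2.77, adjusted p = 0.00431).

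The sums of natural killer cell markers did not overlap either, at 240.0 to 307 CPM with and 205 to 222 CPM without CoA, and 1 of 3 tested genes, Nkg7, which CD8+ T cells also express, rose (0.53, adjusted p = 0.0100 by edgeR). Those of dendritic cell markers, Siglech at 0, were 5.46 to 9.40 and 3.73 to 5.0 CPM, with 1 of 4 tested genes higher (Zbtb46). The sums of the other lists overlapped. Macrophage and monocyte markers summed to 5.47 to 15.3 and 4.97 to 8.26 CPM, with 2 of 5 tested genes higher (Lyz2 and Cd14), and CD4 T cell markers to 12.2 to 15.9 and 8.67 to 14.7 CPM, with 1 of 4 higher (Cd40lg). B cell markers summed to 7.41 to 9.90 and 9.10 to 11.9 CPM, and erythroid markers to 0.289 to 0.444 and 0.409 to 0.560 CPM. The part of any of these in the chaperone result was not tested.

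Other genes of the same pathways, from 7 further lists of which 122 of 127 genes were measured, went both ways with CoA: 24 rose and 13 fell. The 37 called were 30.3% of the lists, beside 24.5% of all genes tested (12.5% higher and 12.0% lower), and the median log2 fold change was 0.11 beside -0.01. Of the cytosolic J-domain proteins and cochaperones, 7 of 29 rose and 0 fell, led by Nudc (0.79, adjusted p = 0.00403 by edgeR), Tomm34 (0.54, adjusted p = 0.00754), the Hsp90 isomerase gene Ppid (0.91, adjusted p = 0.00813) and the phosphatase gene Ppp5c (0.81, adjusted p = 0.00869). Of the heat shock and small heat shock list, 8 of whose 13 genes were measured, 3 rose and 3 fell. Hsf2, a second heat shock factor, rose (0.90, adjusted p = 0.00467) and Hspa4l, an Hsp110 gene, fell (-0.70, adjusted p = 0.00556), as did Hspb11 (-0.83, adjusted p = 0.00600). The stress-inducible Hsp70 gene Hspa1b rose (1.97, adjusted p = 0.0104) but stood at only 0.23 to 0.57 CPM without and 1.33 to 2.39 CPM with CoA, and its reads cannot be separated with certainty from those of its near-identical copy Hspa1a, which failed the low-count filter. Prefoldin and CCT helpers gave 1 of 10 higher (Pfdn4, 0.64, adjusted p = 0.0268) and 1 lower (Cct6b, -1.09, adjusted p = 0.0286).

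In the organelles, 4 of 17 mitochondrial cochaperones and proteases rose and 2 fell with CoA. Clpp, the matrix protease (1.07, adjusted p = 0.0224 by edgeR), Timm44 (0.40, adjusted p = 0.0248) and Grpel1 (0.34, adjusted p = 0.0280), the last 2 partners of matrix Hsp70, rose, and Hscb, a J-domain protein of iron-sulfur cluster assembly, fell (-0.87, adjusted p = 0.00590). Of 26 ER folding enzymes and cochaperones 4 rose and 3 fell: Fkbp11 rose (1.04, adjusted p = 0.0163), while Sdf2 (-0.57, adjusted p = 0.00885) and the oxidases Ero1lb (-0.55, adjusted p = 0.0190) and Ero1l (-0.93, adjusted p = 0.0217) fell. Of 19 genes listed under ER-associated degradation 3 rose and 3 fell. Among them Selenos (0.62, adjusted p = 0.00777) and Nploc4 (0.40, adjusted p = 0.0217) rose. Edem3 (-0.49, adjusted p = 0.0154) and Herpud2 (-0.42, adjusted p = 0.0250) fell. Of 13 sensors and factors of the unfolded protein response, Atf4 (0.59, adjusted p = 0.00615) and the Xbp1-splicing sensor Ern1 (0.64, adjusted p = 0.0270) rose, and Ddit3, the stress factor CHOP that Atf4 can induce, fell from 12.7, 10.8 and 22.5 to 7.44, 4.59 and 11.1 CPM (-1.0, adjusted p = 0.00529). Of the 25 calls on genes named from these lists, 6 held under all 15 alternatives (Atf4, Hscb, Hspa4l, Hspb11, Nudc and Ppp5c). Without the Tc0 library of mouse 725 15 were lost, and without the mouse block 14. Another 2 fits, without the libraries with CoA of mice 725 and 728, lost 12 and 10.

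**Figure D3:**
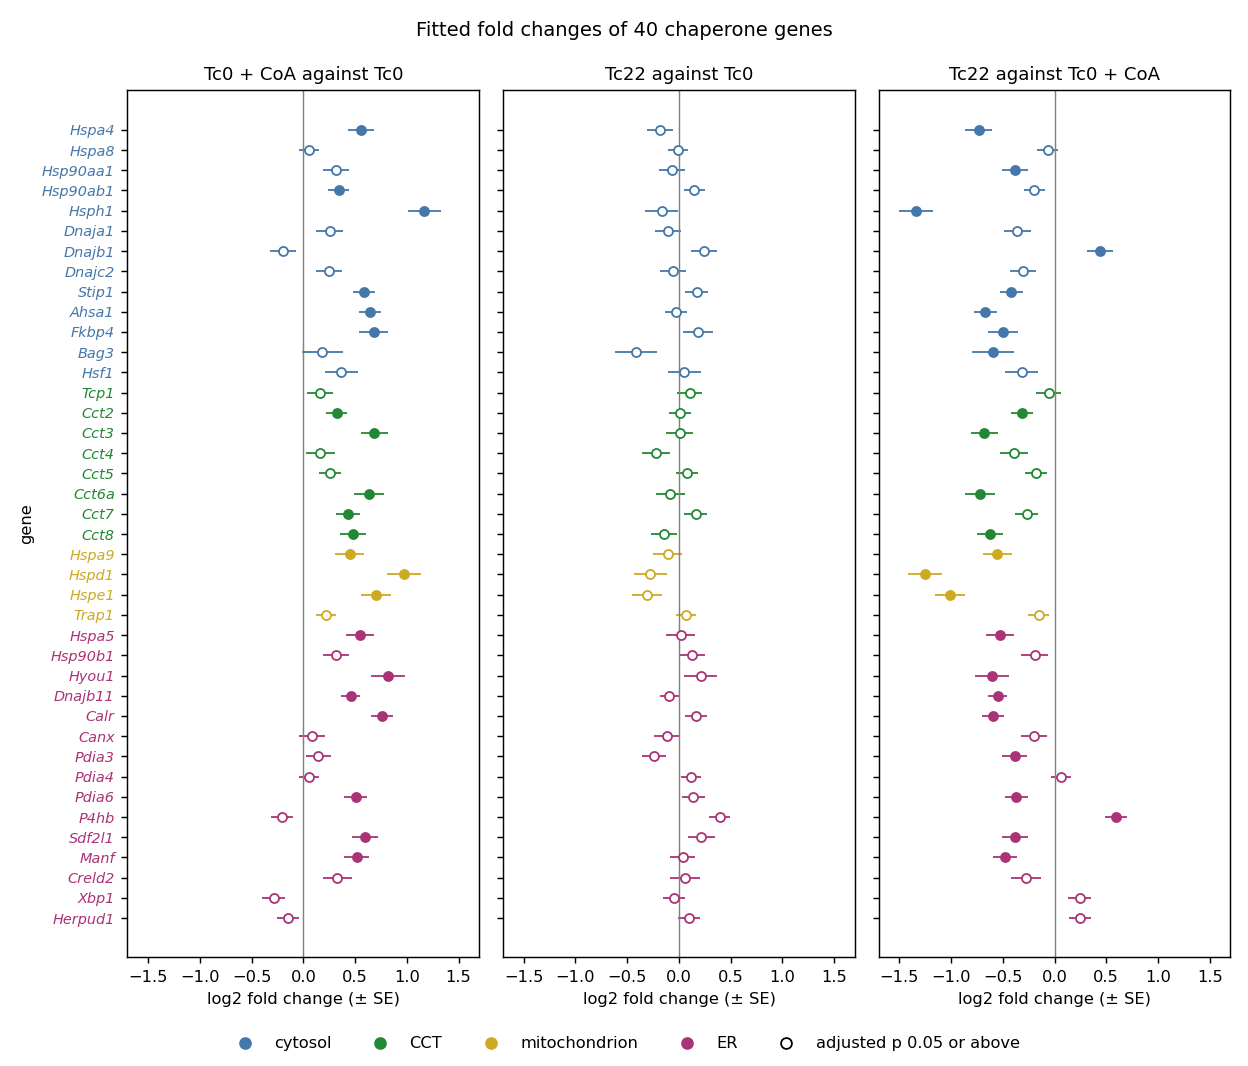
Fitted log2 fold changes (points) with their standard errors (bars) of the 40 genes in the 3 comparisons, filled where the adjusted p was under 0.05 and coloured by compartment. Most points lie to the right of 0 with CoA against Tc0, around 0 in Tc22 against Tc0 and to the left in Tc22 against Tc0 with CoA.

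The comparison of Tc22 with CoA-treated Tc0 cells sets the interleukin-22 population beside the cofactor directly; it shares the libraries with CoA with the comparison above. Chaperone levels were lower in Tc22 cells: 22 of the 40 genes fell and 2 rose by edgeR, where 16.0% of all genes tested fell, 16.0% rose and 32.0% went either way. Those that fell were 7 cytosolic, 4 CCT, 3 mitochondrial and 8 ER genes. The median log2 fold changes were -0.38, -0.35, -0.78 and -0.37 for the cytosol, CCT, mitochondrion and ER, against 0.01 over all genes tested. Within mice 715, 725 and 728 the median log2 ratios were -0.218, -0.465 and -0.528 in the cytosol, -0.243, -0.413 and -0.414 for CCT, -0.530, -0.966 and -0.832 in the mitochondrion, and -0.145, -0.449 and -0.298 in the ER, below 0 in each case. At an unadjusted p under 0.05 there were 30 members, where 6653 of 15348 genes passed. DESeq2 called 25 members, where it called 4702 of 15348 genes. The levels of 27 members did not overlap downward, where 21.7% of all genes did not, and those of 2 did not overlap upward, where 20.2% did not.

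Hsph1 had the largest difference. It stood at 75.0, 66.6 and 61.8 CPM in the Tc22 libraries of mice 715, 725 and 728, against 135, 233 and 153 CPM with CoA (-1.34, SE 0.16, adjusted p = 0.000762 by edgeR). Hspd1 followed, at 998, 841 and 673 CPM in the Tc22 libraries (-1.25, SE 0.16, adjusted p = 0.000988), and Hspe1, at 257, 214 and 191 CPM (-1.01, SE 0.15, adjusted p = 0.00144). For all of these genes every Tc22 library was below every library with CoA. The rest of the cytosolic genes that fell were Hspa4 (-0.73, adjusted p = 0.00296), Ahsa1 (-0.67, adjusted p = 0.00220), Bag3 (-0.60, adjusted p = 0.0464), Fkbp4 (-0.50, adjusted p = 0.0256), Stip1 (-0.42, adjusted p = 0.0169) and Hsp90aa1 (-0.38, adjusted p = 0.0402). Hspa8 (-0.07, adjusted p = 0.633), Hsp90ab1 (-0.19, adjusted p = 0.179) and Hsf1 (-0.32, adjusted p = 0.155) did not pass. In the CCT complex Cct6a (-0.72, adjusted p = 0.00554), Cct3 (-0.68, adjusted p = 0.00448), Cct8 (-0.63, adjusted p = 0.00576) and Cct2 (-0.31, adjusted p = 0.0433) fell, and Tcp1 had the smallest difference (-0.06, adjusted p = 0.750).

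In the mitochondrion Hspa9 fell too (-0.56, adjusted p = 0.0149 by edgeR), and Trap1 did not pass (-0.15, adjusted p = 0.271). The ER genes that fell were Hyou1 (-0.61, adjusted p = 0.0188), Calr (-0.59, adjusted p = 0.00342), Dnajb11 (-0.55, adjusted p = 0.00262), Hspa5 (-0.53, adjusted p = 0.0165), Manf (-0.48, adjusted p = 0.0131), Pdia3 (-0.39, adjusted p = 0.0315), Sdf2l1 (-0.38, adjusted p = 0.0442) and Pdia6 (-0.37, adjusted p = 0.0295). Calr stood at 408, 477 and 456 CPM in the Tc22 libraries, all below the 571 to 801 CPM of those with CoA. Hsp90b1 (-0.19, adjusted p = 0.274) and Canx (-0.20, adjusted p = 0.247) did not pass.

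P4hb and Dnajb1 went the other way. P4hb (chromosome 11, 120560298 to 120573253, minus strand) stood at 544, 673 and 717 CPM in Tc22 libraries and 367, 418 and 494 CPM in those with CoA, without overlap (0.60, SE 0.11, adjusted p = 0.00328 by edgeR). Dnajb1, a J-domain partner of Hsp70, had 60.1, 84.4 and 85.3 against 52.0, 49.7 and 66.6 CPM, with overlap (0.44, SE 0.12, adjusted p = 0.0233). Xbp1 (0.24, adjusted p = 0.115) and Herpud1 (0.25, adjusted p = 0.0995) were above 0 and did not pass. Of the 21 genes higher with CoA than in Tc0 cells, 19 were also lower in Tc22 than with CoA; the comparisons share the CoA libraries, so this overlap is not a separate finding. Cct7 and Hsp90ab1 were called in the first alone, and Bag3, Hsp90aa1 and Pdia3 in the second alone; whether the differences differ between the comparisons was not tested.

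The count of members called was 14 and 11 with the Tc22 libraries of mice 715 and 725 left out in turn. It was 11 and 11 without the libraries with CoA of mice 725 and 728. Without the mouse block it was 10 (all lower), where 2097 of 15348 genes were called. Leaving out the Tc0 library of mouse 728 gave 27. How many of all genes were called in these fits with 1 library left out is not given here. The member counts therefore do not show whether members gained or lost calls more than other genes did. Hsph1, Hspa4, Ahsa1, Cct3, Hspd1, Hspe1, Calr and Dnajb11 were called under all 15 alternatives. The calls of Cct6a, Cct8 and P4hb were lost without the block alone, and the other 13 under 4 to 12 alternatives. Marker sums also differed between these groups, and their part in the result was not tested. Natural killer cell markers summed to 133 to 145 CPM in Tc22 libraries against 240.0 to 307 CPM with CoA, with Nkg7 (-1.01, adjusted p = 0.000512 by edgeR) and Klrk1 (-1.05, adjusted p = 0.00130) lower and Klrb1c higher (1.57, adjusted p = 0.0452). Granulocyte and mast cell markers summed to 0.224 to 1.10 against 1.37 to 3.04 CPM and plasma cell markers to 3.94 to 6.87 against 7.70 to 8.34 CPM, again without overlap. Dendritic cell markers summed to 4.36 to 5.85 against 5.46 to 9.40 CPM, macrophage and monocyte markers to 6.73 to 8.63 against 5.47 to 15.3 CPM, and the CD8 T cell list to 2454 to 3051 against 1992 to 2508 CPM, all with overlap. Erythroid markers summed to 0.680 to 0.799 against 0.289 to 0.444 CPM, without overlap. In the CD8 T cell list Cd3d (0.83), Cd3e (0.61), Cd3g (0.62), Cd247 (0.41), Cd2 (0.45) and Trac (0.58) were higher in Tc22 libraries. Cd8a (-0.05), Cd8b1 (-0.10) and Lck (0.30) did not pass. Of the macrophage and monocyte genes tested, Lyz2 (-1.83), Cd14 (-2.58) and Csf1r (-1.60) were lower, Cd68 (0.72) was higher and Itgam did not pass.

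**Figure D4:**
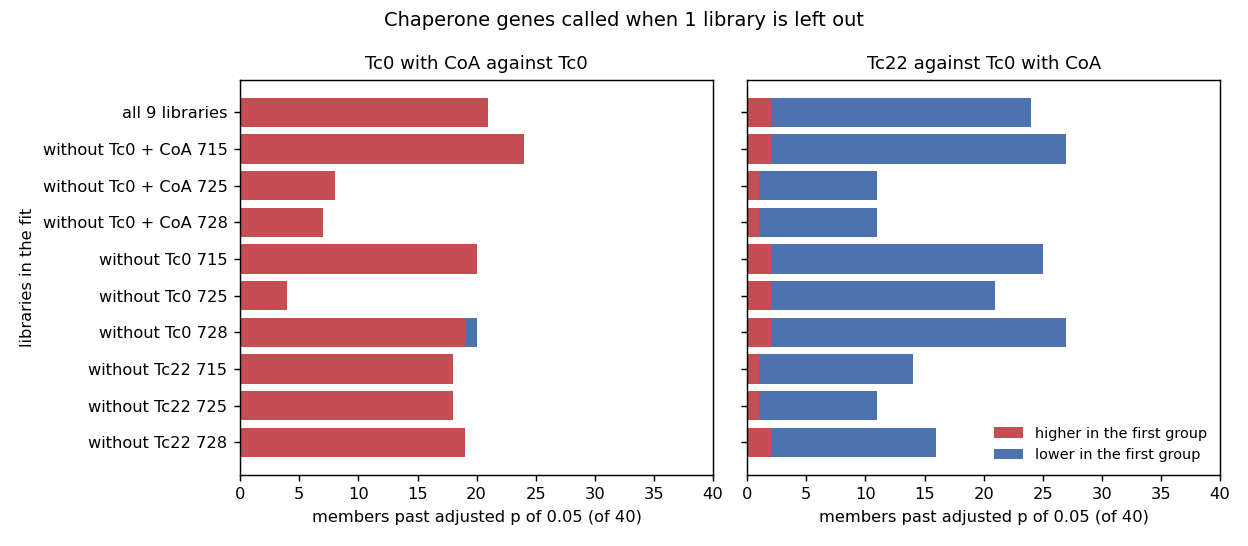
Number of the 40 genes past an adjusted p of 0.05 (bars, red higher and blue lower in the group named first) with all 9 libraries and with each library left out. With CoA against Tc0 the count runs from 4 to 24, and in Tc22 against Tc0 with CoA from 11 to 27.

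Set against CoA-treated cells, 17 of the 122 genes of the other lists had higher levels in Tc22 cells and 26 had lower ones. The 43 called were 35.2% of the lists, beside 32.0% of all genes tested (16.0% in each direction), and the median log2 fold change was -0.08 beside 0.01. In the unfolded protein response list, 3 of 13 genes were higher and 3 lower. Ddit3 stood at 20.1, 18.7 and 26.4 CPM in Tc22 libraries and 7.44, 4.59 and 11.1 CPM with CoA (1.57, SE 0.17, adjusted p = 0.000516 by edgeR), without overlap. Atf6 (0.65, adjusted p = 0.00513) was higher too, and Atf4 (-0.43, adjusted p = 0.0138) and the protease gene Mbtps2, whose product cuts Atf6 (-0.57, adjusted p = 0.0226), were lower. Of 26 ER folding enzymes and cochaperones 6 were higher and 2 lower. Ero1l stood at 1417, 1564 and 1633 CPM in Tc22 libraries and at 527, 353 and 699 CPM with CoA, again without overlap (1.56, SE 0.24, adjusted p = 0.00206). Sdf2 (0.75, adjusted p = 0.00186), Tapbp, which helps load peptides on class I molecules (0.70, adjusted p = 0.00691), and Ero1lb (0.62, adjusted p = 0.00846) were higher as well. Of 19 genes listed under ER-associated degradation 1 was higher, Sdf4 (0.60, adjusted p = 0.00269), which is not known as a degradation gene. Lower were 3, Selenos (-0.59, adjusted p = 0.00620), Edem1 (-0.39, adjusted p = 0.0188) and Vcp (-0.38, adjusted p = 0.0200).

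In the cytosolic lists, 0 of 29 J-domain proteins and cochaperones were higher and 8 lower, with the smallest p for Ppid (-1.36, adjusted p = 0.00104 by edgeR), Tomm34 (-0.56, adjusted p = 0.00381), Nudc (-0.64, adjusted p = 0.00491) and Chordc1 (-0.50, adjusted p = 0.0154). Of 8 measured heat shock genes 3 were higher and 3 lower. Hsf2 (-1.13, adjusted p = 0.00109), Hspa1b (-2.15, adjusted p = 0.00491) and Hspa14 (-0.45, adjusted p = 0.00752) were lower, and the testis-type Hsp70 gene Hspa2 (1.13, adjusted p = 0.00132) was higher. Prefoldin and CCT helpers gave 2 of 10 higher and 4 lower, among them the subunits Pfdn4 (-0.74, adjusted p = 0.0110) and Pfdn5 (0.53, adjusted p = 0.0117), Txndc9 (-0.47, adjusted p = 0.00753) and Cct6b (1.36, adjusted p = 0.00808). Of 17 mitochondrial cochaperones and proteases 2 were higher, the protease gene Afg3l2 (0.57, adjusted p = 0.00367) and Hscb (0.78, adjusted p = 0.00537), and 3 lower, with Grpel2 (-0.54, adjusted p = 0.0134) and Timm44 (-0.38, adjusted p = 0.0250) among them. Of these 28 calls, 14 held under all 15 alternatives and 14 were lost under 1 to 6. Without the mouse block 10 were lost, and with the Tc22 libraries of mice 715 and 725 left out in turn 6 and 12. With the CoA libraries of mice 725 and 728 left out in turn 10 and 11 were lost.

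The comparison of Tc22 with untreated Tc0 cells asks whether the interleukin-22 population differs in its folding machinery. EdgeR called 0 of the 40 genes, where 3.68% of all genes tested were called, 2.48% higher and 1.21% lower. At an unadjusted p under 0.05 there was 1 member, P4hb, where 3248 of 15348 genes passed. DESeq2 also called P4hb alone of the members, where it called 962 of 15348 genes. The median log2 fold changes were -0.02 for the cytosol, 0.01 for CCT, -0.19 for the mitochondrion and 0.10 for the ER. Over all genes tested the median was -0.01. Within mice 715, 725 and 728 the mitochondrial medians were -0.367, -0.237 and -0.021 and the ER medians 0.048, 0.056 and 0.140. Those of the cytosol and CCT were below 0 in mouse 715 and above 0 in mice 725 and 728. The levels of 2 members, Stip1 and Sdf2l1, did not overlap, both higher in Tc22, where 6.55% of all genes did so. Downward 0 did so, where 5.98% did. Natural killer cell markers summed to 133 to 145 CPM in Tc22 and 205 to 222 CPM in Tc0 libraries, without overlap. Klrk1 (-0.78, adjusted p = 0.0185 by edgeR) and Nkg7 (-0.48, adjusted p = 0.0447) were lower, and Klrb1c did not pass. Erythroid markers summed to 0.680 to 0.799 and 0.409 to 0.560 CPM, also without overlap. The sums of the other lists overlapped, and Cd4 was higher (1.59, adjusted p = 0.0484). The part of these was not tested.

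P4hb came closest to the threshold. It stood at 370, 532 and 587 CPM in Tc0 libraries and at 544, 673 and 717 CPM in Tc22 libraries of mice 715, 725 and 728. The groups overlapped but each mouse had the higher level in Tc22 (0.39, SE 0.11, adjusted p = 0.0790 by edgeR). In the cytosol the smallest p was that of Bag3 (-0.41, SE 0.20, adjusted p = 0.268), among CCT subunits that of Cct4 (-0.22, SE 0.14, adjusted p = 0.362) and in the mitochondrion that of Hspe1 (-0.31, SE 0.14, adjusted p = 0.249). Hspd1 was lower in each mouse (-0.28, SE 0.16, adjusted p = 0.344): its Tc0 libraries ran from 682 to 1380.2 CPM and its Tc22 libraries from 673 to 998 CPM. In both populations Hspd1, Hspe1 and Hspa9 were highest in mouse 715 and lowest in mouse 728.

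The other defining members had small fold changes in this comparison. Hspa8 stood at -0.01 (adjusted p = 0.954 by edgeR), Hsp90aa1 at -0.07 (adjusted p = 0.782), Hsp90ab1 at 0.15 (adjusted p = 0.424), Hsf1 at 0.05 (adjusted p = 0.878) and Tcp1 at 0.10 (adjusted p = 0.643). In the organelles Hspa9 stood at -0.11 (adjusted p = 0.683), Hspa5 at 0.02 (adjusted p = 0.957), Hsp90b1 at 0.13 (adjusted p = 0.589), Calr at 0.17 (adjusted p = 0.382), Canx at -0.12 (adjusted p = 0.608), Xbp1 at -0.05 (adjusted p = 0.831) and Herpud1 at 0.10 (adjusted p = 0.607). The standard errors of the 40 genes ran from 0.09 to 0.20, and with 3 mice small changes may not have been detectable. Without the Tc0 library of mouse 728 edgeR called 3 of the 40 members, where 2669 of 15696 genes tested were called. These were P4hb upward (0.43, adjusted p = 0.0296) and Pdia3 (-0.37, adjusted p = 0.0270) and Cct4 (-0.38, adjusted p = 0.0450) downward. Without the low-count filter it called P4hb alone of the members, where 1275 of 26961 genes were called.

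Of the 122 genes of the other lists, 3 were higher in Tc22 cells and 1 was lower. These 4 are 3.28% of the lists, near the 3.68% of all genes tested that were called, and the median log2 fold change was 0.07 beside -0.01. Sdf4 (0.61, SE 0.10, adjusted p = 0.0106 by edgeR), the mannosidase-like gene Edem2 (0.66, SE 0.15, adjusted p = 0.0478) and Atf6, a sensor of the unfolded protein response that is cut to release a transcription factor (0.59, SE 0.13, adjusted p = 0.0343), rose. Edem3, a gene of the same degradation pathway as Edem2, fell (-0.63, SE 0.12, adjusted p = 0.0176). Each of these calls was lost without the mouse block and where mouse 725 lacked its Tc0 or its Tc22 library, and each under 4 to 9 of the 15 alternatives in all.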

How the data were processed

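The authors deposited gene counts of 9 libraries in 1 table, and 9 single-library files whose values were identical. Per the labels' protocols, 200 ng of RNA was depleted of ribosomal RNA and made into stranded total RNA libraries, sequenced as paired ends of 100 cycles. Per the submitters' processing notes, STAR 2.5.2 and RSEM 1.3.0 were used with GRCm38 or mm10. Annotation release and strand setting: not given in the sources used here. All deposited counts are whole numbers and may be rounded RSEM estimates. Reads of overlapping genes (Dnaja1 with Smu1, Tcp1 with Mrpl18, Cct6a with Psph, Cct8 with Usp16, Hspd1 with Hspe1, Manf with Dcaf1 and Rbm15b) and of near-identical copies may therefore have been shared.

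Of 53679 gene IDs, 114 had no symbol (0.0226% of counts) and were tested like the rest; positions are from GENCODE M21 for 53650 IDs. Group and mouse come from the titles. Same-numbered libraries share an animal, as the series' design text says, and mouse was therefore blocked. Deviations from group means correlated between libraries of a mouse with r from 0.0699 to 0.617 (mean 0.360, 9 pairs). Counts were scaled by TMM, filtered with filterByExpr by group (15348 genes) and fitted with edgeR 4.0.16 in R 4.3.3 (quasi-likelihood F test, group and mouse as terms, 4 residual degrees of freedom, biological coefficient of variation 0.158). Adjustment was by Benjamini-Hochberg across the genes tested, and 0.05 was the threshold. Standard errors equal the size of the log2 fold change over the root of F. CPM uses TMM-scaled library sizes. Log2 ratios within mice over all genes used 0.5 CPM as pseudocount. DESeq2 1.42.0 and other settings were alternatives.

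The members and lists were chosen with earlier results of these data known, so no p is given for a list. In each comparison the text names every member past the threshold, the member of each compartment with the smallest p and a set of defining members, and up to 4 genes per other list by smallest p. Tested on simulated data, the fit recovered 34.0% of genes changed 1.5-fold and 90.8% of those changed 3-fold with CoA against Tc0 (15065 genes). It recovered 31.2% and 88.8% in Tc22 against Tc0 (15096 genes), and 30.3% and 90.9% in Tc22 against Tc0 with CoA (15108 genes). At each fold 96 to 100 genes were changed, drawn from all genes tested whatever their level. These shares therefore describe neither the members nor data in which many genes differ.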

Additional observations from a re-analysis of the deposited data

How the results depend on the processing

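No result changed direction while called. A fit without the mouse block leaves mouse out of the model although same-numbered libraries share an animal. There the members called numbered 9 for CoA-treated against untreated Tc0 cells, where 1462 of 15348 genes were called. They numbered 10 for Tc22 against CoA-treated cells and 0 for Tc22 against untreated Tc0 cells, where 2097 and 120 of 15348 genes were called. With single libraries left out, the counts ran from 4 to 24, from 11 to 27 and from 0 to 3 in that order. The 4 and 24 stood beside 1160 of 15887 and 4356 of 15845 genes called, and the 3 beside 2669 of 15696. Counts over all genes beside the 11 and 27 are not given here. In Tc22 against Tc0, DESeq2 and the fit without the low-count filter each called 1 member. Over all genes they called 962 of 15348 and 1275 of 26961. Compartment medians in Tc22 against Tc0 ran from -0.0548 to 0.115 for CCT, from -0.327 to -0.0125 for the mitochondrion and from 0.0446 to 0.136 for the ER with single libraries left out. The CCT and mitochondrial values of 0.115 and -0.0125 came without the Tc0 library of mouse 715, and the ER value of 0.0446 without the Tc22 library of mouse 715. The cause was not tested. The medians in the other comparisons moved by less than their spread between mice. Scaling by relative log expression or by library size alone gave, in the same order of comparisons as above, 21 and 21, 26 and 25, and 0 and 0 members. Over all 15348 genes these fits called 3778 and 3743, 4943 and 4941, and 549 and 530. The alternatives for genes of the other lists were added after the data were seen. With 3 mice, members that did not pass may still differ, and Bag3 and Hspa1b rest on few counts.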
